A study of Mus musculus with 20 samples.

Results

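Acetylated regions in gene deserts are stretches of histone H3 lysine 27 acetylation (H3K27ac) that lay far from any protein-coding gene. They were measured here by chromatin immunoprecipitation and sequencing (ChIP-seq) in mouse hepatocytes, the main cells of the liver. The old group comprised 5 libraries from C57BL/6J mice aged 23 months, and the young group 5 libraries from C57BL/6N mice aged 5 months. Hepatocytes of both ages were isolated by 2-step perfusion, no other treatment or genetic change was labelled, and human chromatin had been added to the chromatin of both groups as a spike-in. Age and substrain coincided, so their parts in any difference cannot be told apart. Whether the libraries of an age were made from separate mice is not stated in the labels. The p-values therefore measure only the spread between these libraries, part of which may be technical.

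Regions called by the authors in the 10 libraries were merged wherever they shared at least 1 bp, which gave 46767 merged regions. Of these, 31747 were called in at least 2 libraries and 31169 of them lay on autosomes. The desert regions were the 1265 autosomal ones (4.06%) whose edge was more than 100 kb from the span of the nearest of 21900 RefSeq protein-coding genes. They were set against the 6717 near intergenic regions, which lay outside genes at more than 1 kb and at most 100 kb from the nearest protein-coding span. No measured signal entered the choice beyond the call in at least 2 libraries.

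H3K27ac is deposited on nucleosomes by the acetyltransferases p300 and CBP and marks active promoters and enhancers. Enhancers are DNA elements that raise transcription from a promoter, and they can lie far from it along the chromosome and meet it by looping. Gene deserts are long stretches without protein-coding genes. Many flank genes for transcription factors and other regulators of development and contain enhancers that act over long distances, and many also hold long noncoding RNA genes.

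Some of the desert regions covered promoters of noncoding RNA genes, and 72 of the 1265 (5.69%) overlapped at least 1 RefSeq promoter window, reaching from 250 bases before to 50 bases after a transcription start. The same held for 7.18% of the near intergenic regions. The windows below belong to noncoding genes and lie inside desert regions called in all 10 libraries. They are shown because the first 3 lie in 3 of the 5 desert regions with the highest mean signal, and the last in a region that rose in old hepatocytes. Sequences are from RefSeq (GRCm38.p6), 5′ to 3′ on the strand of the gene. Capitals mark every match, on either strand, to 6 motifs searched, which were FOXA (TGTTTAC), HNF4A (CAAAGTCCA), HNF1 (GTTAATNAT), CEBP (TTGCNNAA), AP-1 (TGANTCA) and the STAT motif GAS (TTCNNNGAA).
Lncpint, chr6:31218425-31218724, minus strand, no match: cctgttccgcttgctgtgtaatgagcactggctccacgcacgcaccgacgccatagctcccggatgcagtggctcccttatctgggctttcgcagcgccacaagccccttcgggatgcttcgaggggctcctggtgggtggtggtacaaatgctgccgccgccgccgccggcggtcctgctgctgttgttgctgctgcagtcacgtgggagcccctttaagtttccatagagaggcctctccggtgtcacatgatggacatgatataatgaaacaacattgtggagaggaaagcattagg
Gm40574, chr12:110024435-110024734, plus strand, 2 FOXA matches on the opposite strand: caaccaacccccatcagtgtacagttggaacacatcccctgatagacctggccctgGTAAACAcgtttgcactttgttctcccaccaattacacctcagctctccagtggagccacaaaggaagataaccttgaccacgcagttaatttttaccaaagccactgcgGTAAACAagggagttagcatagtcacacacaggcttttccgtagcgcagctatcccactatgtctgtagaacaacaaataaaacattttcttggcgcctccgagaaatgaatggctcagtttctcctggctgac
4732465J04Rik, chr10:95772883-95773182, plus strand, 1 AP-1 match: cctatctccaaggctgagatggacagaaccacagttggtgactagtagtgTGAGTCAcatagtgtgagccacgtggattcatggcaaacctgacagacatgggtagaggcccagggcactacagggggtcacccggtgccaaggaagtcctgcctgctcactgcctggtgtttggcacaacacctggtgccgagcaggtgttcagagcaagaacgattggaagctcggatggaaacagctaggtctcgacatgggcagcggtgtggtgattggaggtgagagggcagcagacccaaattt
Gm33447, chr13:97375930-97376229, plus strand, 2 GAS matches: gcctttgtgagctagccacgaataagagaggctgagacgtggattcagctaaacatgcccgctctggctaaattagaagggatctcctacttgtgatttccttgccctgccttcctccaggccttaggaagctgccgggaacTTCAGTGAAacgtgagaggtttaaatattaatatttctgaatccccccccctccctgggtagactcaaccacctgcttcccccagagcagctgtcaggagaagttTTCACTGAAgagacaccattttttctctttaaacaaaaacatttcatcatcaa

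The 94 promoter windows that overlapped desert regions, of 75 genes, were set against all 32851 windows of the RefSeq table. FOXA letters stood in 4.26% of the desert windows, against 3.65% of all windows. CEBP letters stood in 10.6%, against 10.8%, and AP-1 letters in 7.45%, against 7.81%. GAS letters stood in 12.8%, against 8.30%, and HNF1 letters in 2.13%, against 0.801%. HNF4A letters stood in 0 of the 94 windows, against 0.475% of all windows. Each share is a description of letters in these windows, and with so few windows no test was made. The median GC content was 47.3% in the desert windows, 52.7% in all windows and 48.3% in the noncoding windows.

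A further 3 desert regions contained a microRNA gene. MicroRNAs are short RNAs that lower the output of messenger RNAs matching their seed, bases 2 to 8, which is in capitals here. Mir802 is expressed in liver and pancreas, and its mature RNAs are shown because its region, chr16:93367216-93370690 between Runx1 and Setd4, was called in all 10 libraries.
mmu-miR-802-5p: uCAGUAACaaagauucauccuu
mmu-miR-802-3p: aCGGAGAGucuuugucacucag
The Mir802 region held 209, 154, 177, 87.5 and 177 scaled tags in old libraries, against 109, 119, 135, 239 and 218 in young libraries. Scaled tags are the authors' tag numbers per region at a common depth of 10000000 tags per library. The means were 161 ± 45.4 in old and 164 ± 60.2 in young hepatocytes (SD, n = 5 each), and the groups overlapped over most of their ranges. These 3 regions were chosen after their values were seen. The region at Mir6372, between Bcl11a and Fancl, was called in 5 old and 3 young libraries with a mean of 31.2 ± 10.2 scaled tags over the calling libraries. The region at Mir137, a microRNA best known from neurons, was called in 2 old and 3 young libraries with a mean of 21.98 ± 7.94 scaled tags.

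The labelled cell type was checked on marker genes, a gene counting as acetylated where a region lay within 1 kb of one of its ends. All 6 hepatocyte markers (Alb, Apoa1, Ttr, Serpina1a, Cps1 and Hnf4a) had a region in all 10 libraries. Of 5 markers each, 1 of Kupffer cells and macrophages (Cd68) and 1 of cholangiocytes (Sox9) had a region in all 10 libraries, and none of leukocytes, liver sinusoidal endothelium or stellate cells did. No library called a region at 4 of the 5 Kupffer markers (Adgre1, Clec4f, Csf1r and Marco), at 4 of the 5 markers of each of the last 3 cell types, or at Krt19, Krt7 and Epcam among the cholangiocyte markers. Summed over its 5 markers, the scaled tags of the Kupffer list ran from 183.5 to 309 in old and from 242.5 to 530.0 in young libraries. The cholangiocyte list ran from 222 to 520.1 in old and from 253 to 580.4 in young libraries. The leukocyte, endothelial and stellate lists reached at most 139.6, 29.2 and 103 in old and 203.5, 26.3 and 144 in young libraries. Their part in the results below was not tested.

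Total tags per library ran from 6295930 to 9847344 in old and from 7341342 to 15544145 in young libraries. Young replicate 5 stood apart from the others, with 15544145 tags and an estimated fragment length of 620 bp, against 414 to 444 bp elsewhere. Old replicate 5 had the fewest tags and the fewest called regions. IP efficiency, the percentage of a library's tags that fell in its regions, was 31.9 ± 4.81% in old and 40.2 ± 6.62% in young libraries (SD, n = 5 each), with overlapping ranges. In bulk chromatin, fewer cells that carry a mark and less of the mark per cell cannot be told apart.

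Desert regions formed a similar share of the called regions at both ages. Old libraries called 841, 842, 804, 783 and 563 of them, and young libraries 826, 842, 702, 888 and 743. The mean was 767 ± 117 in old and 800.2 ± 75.9 in young libraries (SD, n = 5 each), with overlapping ranges. Old replicate 5 lay below all other libraries. As a share of all autosomal consensus regions called in the same library, desert regions came to 3.56 ± 0.214% in old and 3.52 ± 0.260% in young hepatocytes. They covered 1.25 ± 0.238 Mb in old and 1.32 ± 0.130 Mb in young libraries.

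**Figure D1:**
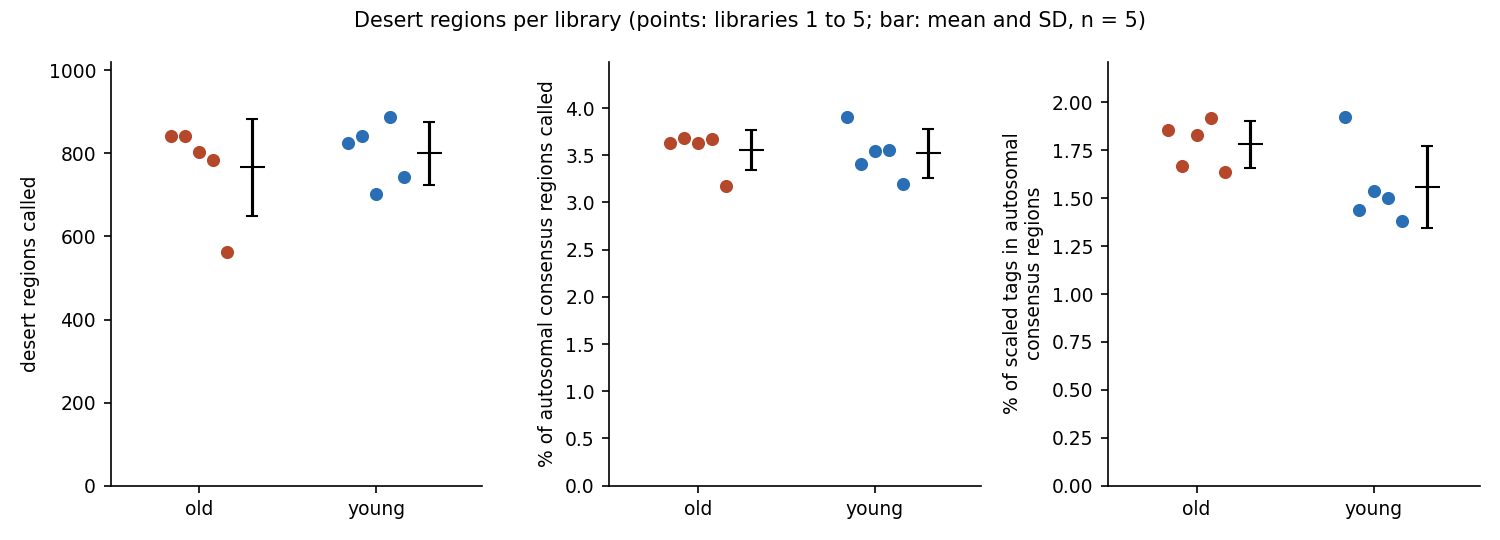
Desert regions called (left), their share of the autosomal consensus regions called (middle) and their share of the scaled tags in those regions (right), per library, with the mean and SD of 5 libraries beside each age. The ages overlap in all 3 panels. In the right panel 4 of the 5 young libraries lie below every old library, and young replicate 1 lies above them.

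Their share of the scaled tags was 1.85, 1.67, 1.83, 1.92 and 1.64% in old libraries, against 1.93, 1.44, 1.54, 1.499 and 1.38% in young libraries. The means were 1.78 ± 0.122% in old and 1.56 ± 0.214% in young hepatocytes (SD, n = 5 each), a difference of 0.224 percentage points against a pooled SD of 0.174. The highest value of all was that of young replicate 1, and without it the difference was 0.316 points. The difference depended on where the limit was set, being 0.405 points at 50 kb (2352 regions) and 0.0503 points at 200 kb (547 regions).

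Within each library, desert regions were weaker, shorter and less often called than intergenic regions nearer to genes. The median region in a desert held 36.3 ± 3.07 scaled tags, against 45.8 ± 4.18 in near intergenic regions (mean and SD of 10 libraries). The ratio of the medians was 0.792, a log2 difference of −0.34, and it was below 1 in 10 of 10 libraries. The median length was 1200 ± 70.0 bp in desert regions and 1319 ± 79.4 bp in near intergenic regions. Density was lower too, at 29.98 ± 3.40 scaled tags per kb of called length in deserts and 33.97 ± 3.98 near genes (ratio 0.883). An average library called 61.9 ± 7.46% of the desert regions and 66.2 ± 7.31% of the near intergenic ones. Each of these 4 differences had a two-sided exact permutation p of 0.00195 over sign flips of the 10 libraries, which is the smallest that 10 libraries allow, and the same value after Benjamini-Hochberg adjustment over the 4. Among regions called in all 10 libraries the difference in length was smaller, at −0.032 on the log2 scale (exact permutation, adjusted p = 0.0820).

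**Figure D2:**
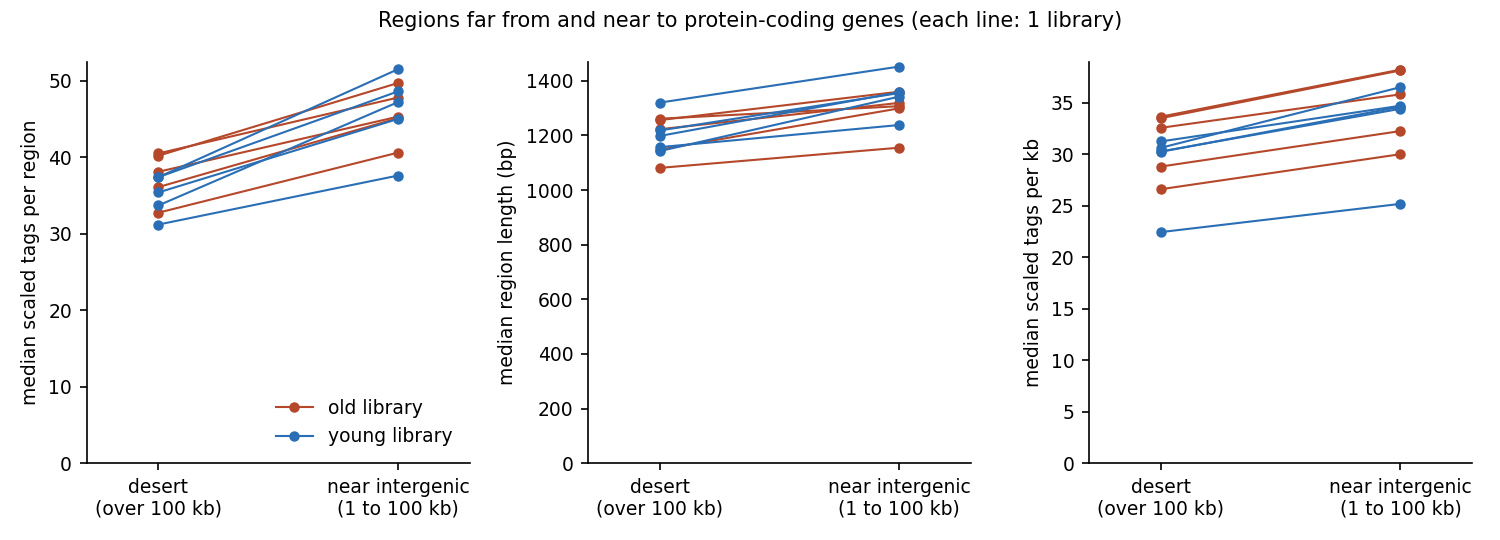
Median scaled tags, region length and scaled tags per kb of desert regions (left in each panel) and near intergenic regions (right), with 1 line per library. Every line slopes up to the right in all 3 panels, in old and in young libraries alike, with median tags of 31.2 to 40.5 in deserts and 37.6 to 51.5 near genes.

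Median signal was lower in the bands farther from genes. Regions 100 to 200 kb from a gene (718) had a median of 41.4 ± 4.24 scaled tags, those 200 to 500 kb away (460) 32.6 ± 2.52, and those over 500 kb away (87) 24.5 ± 3.72 (mean and SD of 10 libraries). Near intergenic regions had medians of 45.6 ± 4.29, 47.1 ± 4.36 and 45.5 ± 4.94 at 1 to 20, 20 to 50 and 50 to 100 kb. The share called in all 10 libraries was 29.0% at 100 to 200 kb, 21.96% at 200 to 500 kb and 14.9% over 500 kb. Input tags, the background measured without antibody, had a median of 3.75 per kb of region at 100 to 200 kb, 3.22 at 200 to 500 kb and 2.44 over 500 kb. The part of the input in this trend was not tested. The distance to the nearest gene ran from 100.04 kb to 2070 kb with a median of 177 kb, and 18 desert regions lay more than 1000 kb from any protein-coding gene.

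Just inside the limit lay a region 177 kb from Abca1, the cholesterol exporter, and 100.04 kb from Slc44a1, a choline transporter. It held 104 ± 22.4 scaled tags in 10 libraries. Just outside the limit, at 99.99 kb from Plxna1, a region called in 10 libraries held 76.9 ± 25.9 scaled tags. Of the next regions on either side, that inside between Slc16a7 and Lrig3 held 28.5 ± 9.66 scaled tags in 8 libraries and that outside near Cxadr held 30.3 ± 20.9 in 10. The third inside, near Ogfrl1, was called in 4 young and 0 old libraries at 13.2 ± 5.28 scaled tags, and the third outside, near Hes1, held 26.8 ± 8.25 in 8.

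The desert regions were spread over all 19 autosomes, from 25 on chromosome 19 to 130 on chromosome 13. They formed 9.02% of the autosomal consensus regions of chromosome 13, 7.92% of those of chromosome 12 and 1.80% of those of chromosome 5. Of the 1393 gaps between neighbouring protein-coding genes that were longer than 200 kb, 420 (30.2%) held at least 1 desert region. The density was 1.86 desert regions per Mb of the sequence beyond 100 kb from genes, against 9.17 near intergenic regions per Mb of the nearer sequence. They were gathered in few places: 80 gaps with 5 or more desert regions held 640 of them, while 182 gaps held 1 each. The gaps with desert regions were longer, with a median of 628 kb against 377 kb for gaps without one. A longer gap has more sequence beyond 100 kb from its genes, and the counts per gap were not adjusted for this.

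The strongest desert regions lay in the gap between Klf14, an imprinted Krüppel-like transcription factor gene, and Mkln1, which encodes a subunit of a ubiquitin ligase complex. This gap of 440 kb on chromosome 6 holds Lncpint, a long noncoding RNA gene known to be induced by p53. It contained 19 desert regions, of which 6 were called in all 10 libraries. The region over the Lncpint promoter shown above, chr6:31210895-31223430, had 1507, 1489, 1469, 1414 and 1252 scaled tags in old libraries, against 2344, 2128, 1625, 2031 and 1736 in young libraries. All old values lay below all young values in scaled tags, while after each library was centred as described below the groups overlapped. A broad region further into Lncpint, chr6:31125377-31151306, held 738 ± 217 scaled tags in old and 873 ± 307 in young libraries, over a called length of 18877 ± 4041 bp (SD over 10 libraries). Another, chr6:31105602-31117255, held 507 ± 91.7 in old and 665 ± 143 in young libraries, and both overlapped between ages. None of the 6 passed the test of age described below in limma, edgeR or DESeq2. An unadjusted p under 0.05 in limma was found in 2 of them and in 17.2% of all regions tested.

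Other desert regions with high signal lay outside this gap. The second strongest of all, chr8:126802485-126813568, lay between Irf2bp2, a transcriptional corepressor, and Tomm20, a receptor for import into mitochondria, and overlapped the noncoding gene Gm31718. It held 1036 ± 200.2 scaled tags in old and 1236 ± 181 in young libraries. The region at the Gm40574 promoter shown above, chr12:110018173-110026421, lay between Rtl1 and Dio3, imprinted genes of which Dio3 encodes the enzyme that inactivates thyroid hormone. It had 710, 669, 782, 564 and 597 scaled tags in old libraries, against 1349, 940, 906, 833 and 610 in young libraries. Young replicate 5 fell among the old values, so the groups overlapped. The region at the 4732465J04Rik promoter, between Nudt4 and Eea1, held 541 ± 113 in old and 759 ± 169 in young libraries. The region at AI463229 between Ly86 and Rreb1 held 494 ± 67.5 in old and 633 ± 118 in young libraries. After the centring described below, the log2 differences (old minus young) at Gm31718, Gm40574, 4732465J04Rik and AI463229 were 0.03, −0.15, −0.19 and −0.05. Their limma adjusted p ran from 0.501 to 0.937. Apart from those in Lncpint, the longest was chr16:24220556-24230555 between Bcl6, a transcriptional repressor with sex-biased expression in liver, and Lpp, at 9420 ± 493 bp and 408 ± 57.6 scaled tags over the 10 libraries.

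**Figure D3:**
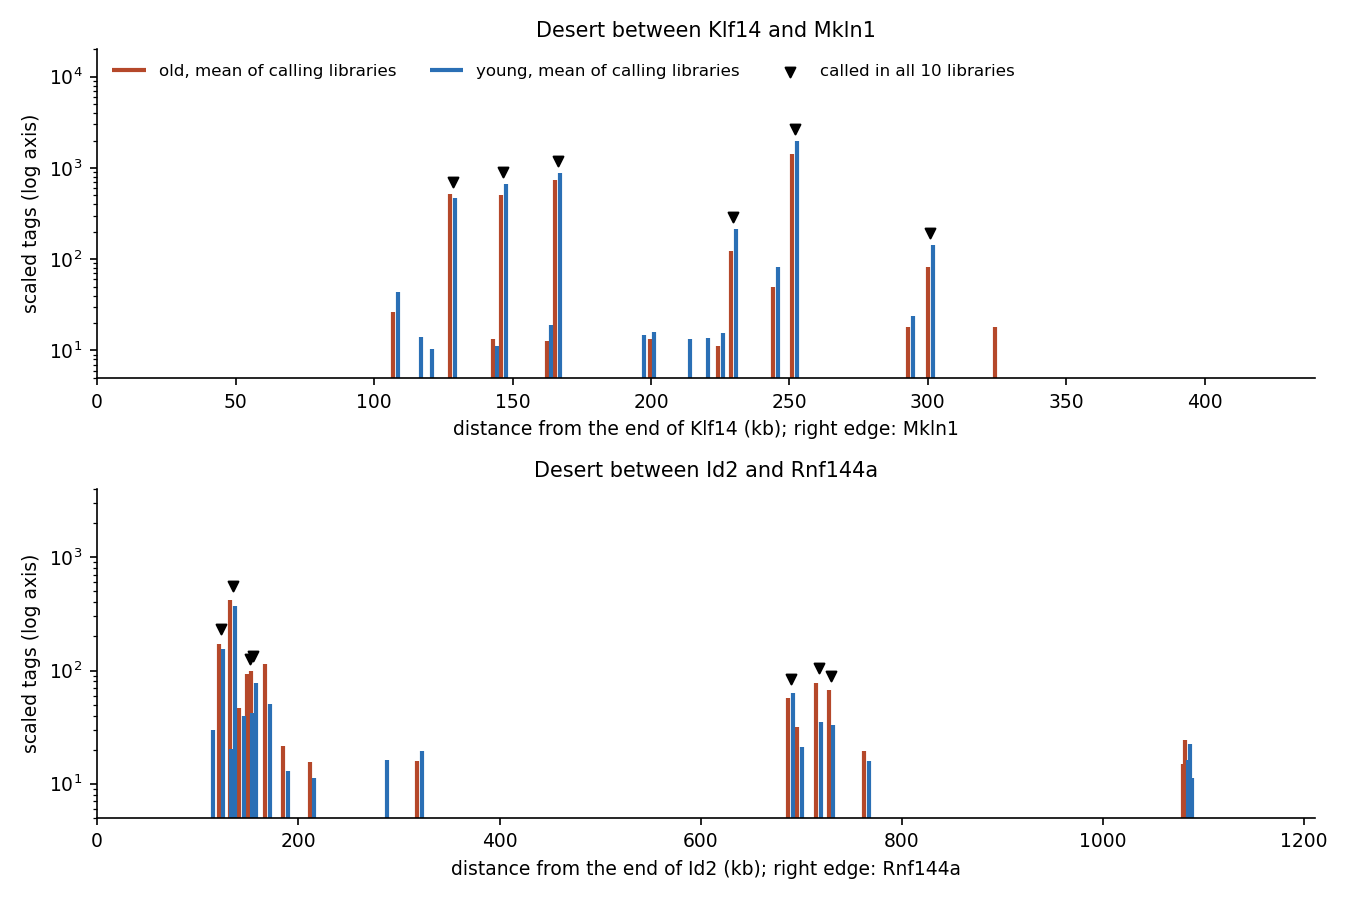
Scaled tags of each desert region by its distance from the end of the left gene, for the Klf14 to Mkln1 and Id2 to Rnf144a gaps, on a log axis, with old to the left of young and black triangles over regions called in all 10 libraries. Bars are means over the libraries that called the region. The 6 regions called in all 10 libraries between Klf14 and Mkln1 include the strongest, at 1426 in old and 1973 in young libraries, while the 7 between Id2 and Rnf144a lie in 2 clusters.

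Desert regions at a noncoding promoter window were stronger and longer than the rest. Of the 1265 desert regions, 386 (30.5%) overlapped an annotated long noncoding RNA gene, against 25.9% of the near intergenic regions. The 72 desert regions at a promoter window had a median of 91.2 ± 17.6 scaled tags, against 34.5 ± 3.24 in the 1193 without one (mean and SD of 10 libraries). The lowest library of the first group, at 67.1, lay above the highest of the second, at 38.9. The tags of a region add up along its length, and the median length was 1987 ± 239 bp at a promoter window and 1145 ± 71.8 bp elsewhere. A longer region is also more likely to overlap a window, and the groups were not matched for length. Per kb of called length the medians were closer, at 43.9 ± 5.73 scaled tags at a promoter window and 29.5 ± 3.30 elsewhere. Of those at a promoter window, 39 (54.2%) were called in all 10 libraries, against 23.7% of the rest. When noncoding genes were counted as genes, only 102 regions remained more than 100 kb from any gene.

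Of the 87 desert regions more than 500 kb from a protein-coding gene, 13 were called in all 10 libraries, and the 4 farthest of these are described here. One at chr10:47652285-47655879 lay 1438 kb from Grik2, a glutamate receptor gene. It had 126, 40.6, 59.7, 48.8 and 58.0 scaled tags in old libraries, against 67.9, 28.8, 53.8, 114 and 63.0 in young libraries. The groups overlapped. Another lay 1158 kb from Gpc5, a glypican gene, with 16.2 ± 3.31 scaled tags in old and 30.04 ± 13.2 in young libraries. One more, 628 kb from Cdh11, a cadherin gene, held 83.0 ± 16.6 in old and 62.5 ± 11.7 in young libraries, and its centred values did not overlap between ages. The one 890 kb from Gm597 held 48.1 ± 13.9 in old and 52.6 ± 20.4 in young libraries.

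Calls were compared between ages for each desert region. Of the 1265, 327 (25.8%) had more calls in old hepatocytes, 414 (32.7%) had more calls in young hepatocytes and 524 had equal numbers. Over all 31747 consensus regions, 18.4% had more calls in old and 27.98% more in young hepatocytes. In 3 desert regions a call was made in all 5 old and in 0 young libraries, and in 2 in all 5 young and 0 old libraries. Among all consensus regions these patterns made up 0.0346% and 0.167%. Fisher's exact test (two-sided) of the calls at each region could reach p = 0.00794 at best, and 0 consensus regions passed after Benjamini-Hochberg adjustment, where the smallest value was 1. At an unadjusted p under 0.05 there were 10 desert regions with more calls in old libraries, where 0.268% of all consensus regions passed, and 13 with more calls in young libraries, where 0.961% passed.

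The 3 regions called in old libraries alone were chr1:114868507-114869757, 815 kb from the contactin-associated gene Cntnap5a, chr11:111604852-111605987, 116 kb from Gm11677 in the gap beyond the potassium channel gene Kcnj2, and chr13:103590902-103593343, 145 kb from the splicing factor gene Srek1. The Cntnap5a region had 36.6, 14.2, 24.5, 10.6 and 22.2 scaled tags in the old libraries, and the Gm11677 region 43.9, 25.4, 22, 27 and 25.4. The Srek1 region had 15.3, 15.2, 109, 28.1 and 33.4, of which old replicate 3 was far above the rest. The 2 called in young libraries alone were neighbours between Ccdc85a and Efemp1, a fibulin gene, at chr11:28697528-28701798 and chr11:28702379-28703730. The first had 77.0, 17.3, 71.6, 13.1 and 18.7 scaled tags in the young libraries and the second 28.9, 36.9, 32.7, 32.2 and 9.97. A missing call is not an absence of signal. Because fewer libraries then have to match, the 5 such regions became 8 without old replicate 5, 8 without young replicate 3 and 8 without young replicate 5.

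Signal was tested in the 322 desert regions called in all 10 libraries (25.5% of the 1265). All 12550 regions called in all 10 libraries were fitted with limma on log2 of scaled tags plus 1, each library centred on the median of these regions, and p-values were adjusted by the Benjamini-Hochberg method over all of them at a threshold of 0.05. Differences are old minus young on this scale, which understates changes of weak regions. Of the 322, 7 were higher in old hepatocytes, where 0.534% of all regions tested were, and 0 were lower, where likewise 0.534% were. edgeR also called 7 higher and 0 lower, where it called 0.542% and 0.406% of all regions tested. DESeq2 called 35 higher and 4 lower, where it called 2.61% and 2.32% of all regions tested. At an unadjusted p under 0.05, 77 were higher (7.99% of all regions tested) and 12 lower (9.19% of all regions tested). The count of 7 changed with single libraries. It was 3, 2, 4, 2 and 3 without old replicates 1, 2, 3, 4 and 5, and 16 (15 higher), 3, 5, 4 and 4 without young replicates 1, 2, 3, 4 and 5, each left out in turn. Over all 12550 regions tested, the 67 higher and 67 lower became 160 and 95 without young replicate 1. Without any other single library, 18 to 38 were higher and 12 to 30 lower.

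The median log2 difference of the 322 was 0.23, and 245 of them (76.1%) were above 0. Over all 12550 regions the median was −0.011 and 48.3% were above 0, and over the 2055 near intergenic regions tested it was 0.14 with 64.9% above 0. By distance, the median was −0.039 within 1 kb of a gene span, 0.14 at 1 to 100 kb, 0.24 at 100 to 200 kb, 0.20 at 200 to 500 kb and 0.30 over 500 kb (13 regions). The sign of the median depended on the centring. Without it all regions shifted to a median of −0.31 and the desert regions to −0.06, with 143 of 322 above 0 and with 6 higher and 5 lower past the threshold, where 0.223% of all regions tested were higher and 5.55% lower. The desert median lay above that of all regions on both scales.

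After centring, the median difference was greater in bands of weaker signal. Regions with a mean under 50 scaled tags had a median log2 difference of 0.43 in deserts (58 regions) and 0.14 over all regions tested. At 50 to 100 tags the medians were 0.26 and 0.090, at 100 to 200 tags 0.23 and 0.022, and at 200 tags or more 0.080 and −0.055, deserts first. IP efficiency, given above, was lower on average in old libraries, and its part in these differences was not tested. The medians of input tags per kb in desert regions were 3.49 ± 0.797 in old and 3.48 ± 1.48 in young libraries. Input tags are scaled to each library's own depth, so these medians do not compare the background between ages at a common depth. The highest, 5.93, was that of young replicate 5, the library with the most tags.

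**Figure D4:**
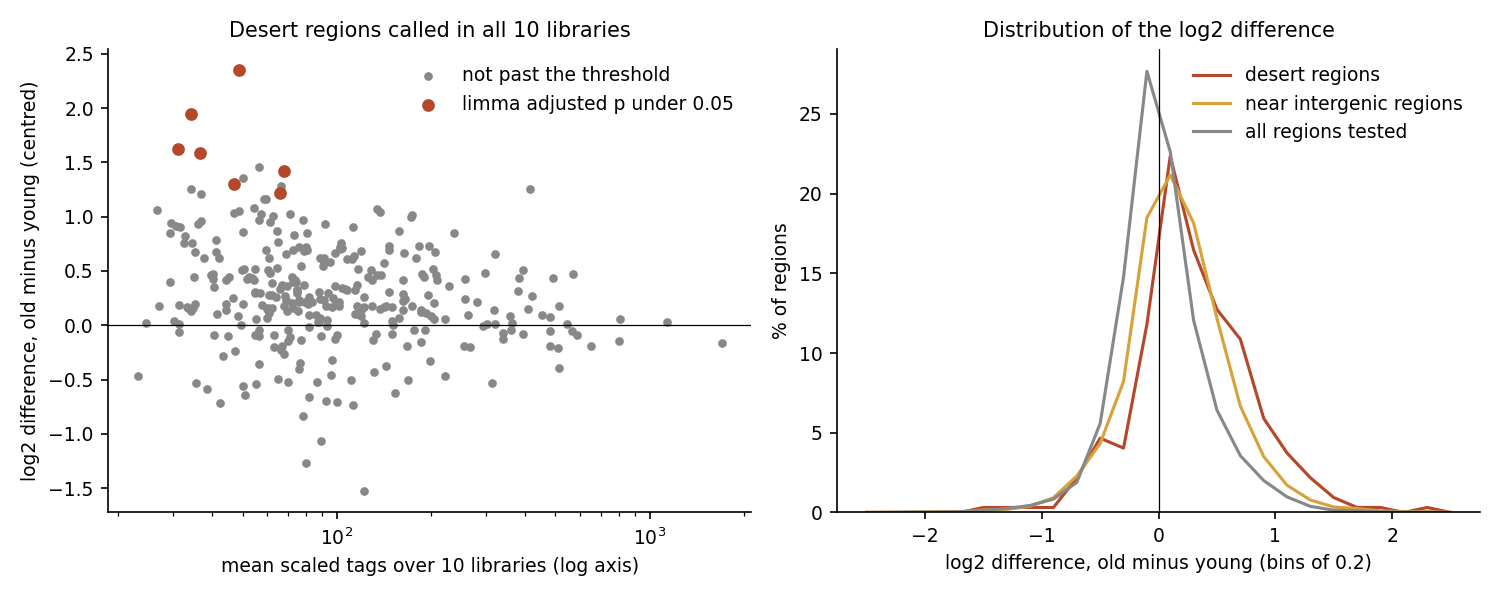
Left, log2 difference (old minus young, centred) against mean scaled tags on a log axis for the 322 desert regions called in all 10 libraries, with the 7 past the limma threshold in red. Right, the distribution of the log2 difference in desert, near intergenic and all tested regions. The 7 lie between 1.22 and 2.35 at means of 31.2 to 68.0 scaled tags, and the desert curve lies to the right of the curve of all regions, with medians of 0.23 and −0.011.

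The region with the greatest rise, chr2:72767757-72770148, lay 166 kb from Sp3, a GC-box transcription factor gene, in the gap beyond Cdca7, a gene of the cell division cycle, and overlapped the noncoding gene 6430710C18Rik. It had 95.0, 78.2, 113, 66.3 and 45.3 scaled tags in old libraries, against 14.7, 17.9, 23.8, 16.4 and 16.1 in young libraries. The lowest old value was above the highest young one. It rose 5.09-fold in old hepatocytes, with a log2 difference of 2.35 ± 0.27 (SE, limma adjusted p = 0.00261). The called length was 1904 ± 345 bp in old and 733 ± 223 bp in young libraries, and the density was 40.9 ± 7.17 scaled tags per kb in old and 25.6 ± 6.20 in young libraries. The rise held with each library left out in turn (limma adjusted p from 0.00420 to 0.0134).

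Next came chr1:42532039-42533806, which lay 162 kb from Pou3f3, a POU-domain transcription factor gene of the developing brain and kidney. It had 41.2, 53.8, 55.3, 67.3 and 42.1 scaled tags in old libraries, against 14.7, 21.3, 24.5, 11.2 and 10.6 in young libraries. No old value came near the young ones, and the region rose 3.85-fold (log2 difference 1.94 ± 0.32, limma adjusted p = 0.0204). A region 152 kb from Id2, an inhibitor of basic helix-loop-helix transcription factors, at chr12:25247761-25250878, had 83.1, 84.8, 127, 109.7 and 65.9 in old libraries, against 43.0, 50.1, 36.1, 38.7 and 41.2 in young libraries. The groups did not overlap, and it rose 2.67-fold (1.42 ± 0.22, limma adjusted p = 0.0140). The Id2 region passed with each library left out in turn (limma adjusted p up to 0.0456), while the Pou3f3 region did not without old replicate 2 (0.0533) or old replicate 4 (0.0624).

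The region at the Gm33447 promoter shown above, chr13:97375334-97376742, lay 122 kb from Enc1, which encodes an actin-binding kelch protein. It had 59.1, 40.6, 35.2, 48.2 and 41.3 scaled tags in old libraries, against 19.8, 21.3, 15.7, 20.3 and 10.6 in young libraries. It rose 3.07-fold without overlap (log2 difference 1.62 ± 0.28, limma adjusted p = 0.0249). A region 138 kb from Cd83, best known as a surface marker of mature dendritic cells, with Jarid2, a cofactor of the Polycomb complex, on its other side, lay at chr13:43940745-43942849. It had 37.9, 53.8, 84.9, 41.4 and 44.5 in old libraries, against 18.1, 13.8, 31.3, 21.0 and 19.0 in young libraries, again without overlap. It rose 3.01-fold (1.59 ± 0.33, limma adjusted p = 0.0438).

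The region chr2:64461292-64462915, in the gap between Fign, a microtubule-severing enzyme gene, and Grb14, whose product inhibits the insulin receptor, lay 363 kb from Fign. It had 68.4, 54.8, 69.8, 56.7 and 63.5 scaled tags in old libraries, against 37.9, 23.6, 23.2, 34.1 and 38 in young libraries. It rose 2.46-fold without overlap (log2 difference 1.298 ± 0.271, limma adjusted p = 0.0438). The seventh, chr1:194360033-194364374, lay 255 kb from Plxna2, a semaphorin receptor gene, and had 105, 81.7, 96.8, 71.6 and 66.7 in old libraries, against 29.4, 48.4, 34.1, 89.9 and 34.7 in young libraries. Young replicate 4 fell among the old values in scaled tags, and the groups separated after centring. It rose 2.33-fold (1.22 ± 0.25, limma adjusted p = 0.0438), while on tags per kb of called length its difference was 0.23 (limma adjusted p = 0.462) and without centring 0.92 (limma adjusted p = 0.0835). The other 6 passed on tags per kb as well, with log2 differences from 0.63 to 0.87. The Enc1, Cd83, Fign and Plxna2 regions depended on single libraries. The Enc1 region missed the threshold without old replicates 1, 2, 4 or 5 or young replicates 2 or 4 (limma adjusted p from 0.0506 to 0.0671). The Cd83 region passed only without young replicate 1 or 3 and otherwise had limma adjusted p from 0.0570 to 0.0978. The Fign region passed only without young replicate 1 and otherwise had 0.0545 to 0.0993, and the Plxna2 region passed only without young replicate 1 or 4 and otherwise had 0.0772 to 0.0997.

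**Figure D5:**
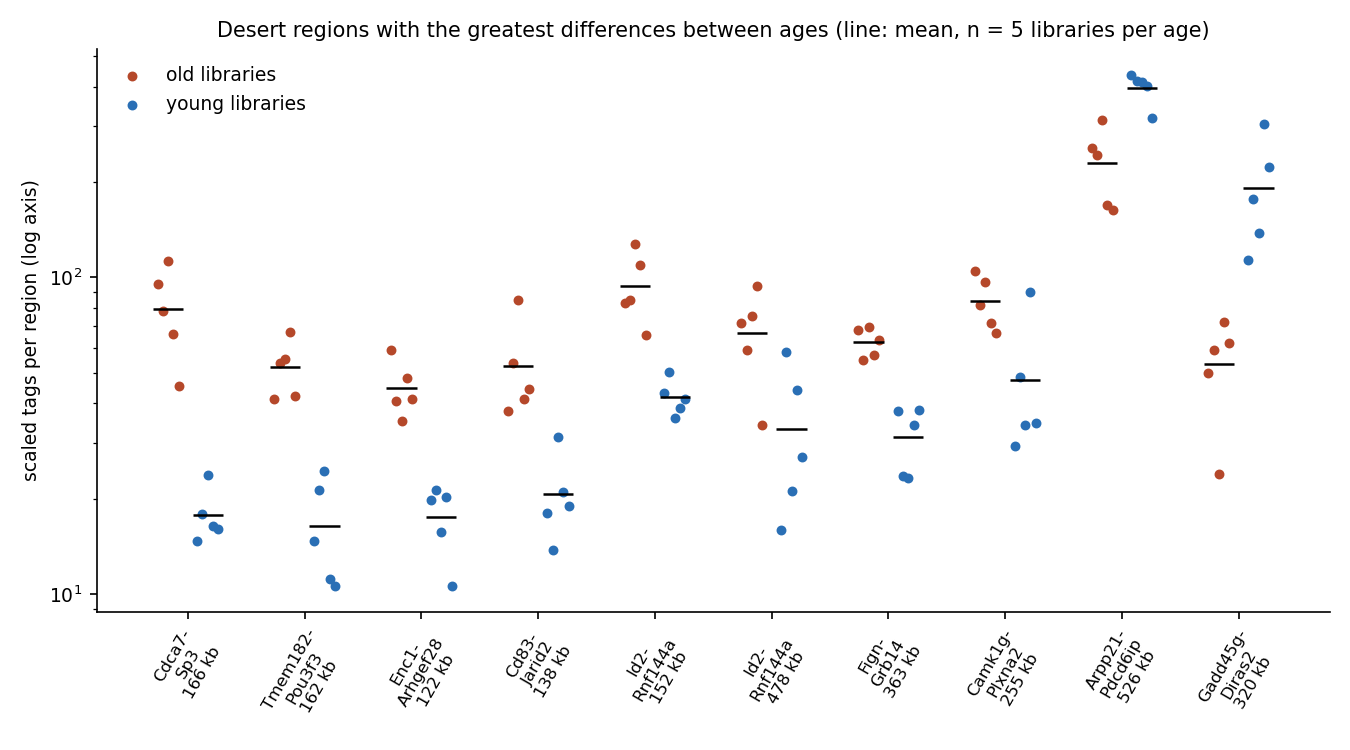
Scaled tags per library, on a log axis, of the 7 desert regions past the limma threshold and of 3 others, which complete the 6 greatest positive and the 2 negative differences among regions whose centred values did not overlap between ages, with old to the left of young and a line at each mean of 5 libraries. The 8 regions on the left have higher means in old libraries, and the 2 on the right, near Pdcd6ip and Diras2, have lower means in old libraries.

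After centring, the old values lay all above the young ones in 22 of the 322 desert regions, and all below in 2. Over all regions tested these shares were 2.33% and 2.96%. Of the 2 with lower values in old libraries, chr13:52178832-52184511 lay between Gadd45g, a stress-induced gene, and Diras2, a small GTPase gene. It had 49.8, 58.9, 23.9, 72.1 and 61.9 scaled tags in old libraries, against 114, 177, 138, 305 and 223 in young libraries. Its log2 difference was −1.53 ± 0.35 (limma adjusted p = 0.0596), with adjusted p from 0.00191 in DESeq2 to 0.180 on tags per kb in limma over the alternatives run, and 0.0411 without young replicate 1. The other, chr9:113118520-113126014 between Arpp21 and Pdcd6ip, held 229 ± 63.3 in old and 397 ± 45.7 in young libraries, a log2 difference of −0.53 ± 0.14 (limma adjusted p = 0.0857). Its density was 58.4 ± 15.9 scaled tags per kb in old and 65.3 ± 11.6 in young libraries, and its called length 4022 ± 1068 bp in old and 6172 ± 779.7 bp in young libraries.

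The gap of 1211 kb between Id2 and Rnf144a, a ubiquitin ligase gene, held more desert regions than any other gap, with 20. Of these, 7 were called in all 10 libraries, and all 7 had log2 differences above 0, with a median of 0.67. Without centring 6 of the 7 did, with a median of 0.37, and on tags per kb all 7 did, with a median of 0.44. After centring, 76.1% of the 322 desert regions tested and 48.3% of all regions tested were above 0. Over all regions tested, limma, edgeR and DESeq2 called 0.534%, 0.542% and 2.61% higher in old hepatocytes. Of the 7, limma and edgeR called 1 and DESeq2 3, all higher in old hepatocytes. The strongest, chr12:25230916-25236624, 135 kb from Id2, had 403, 365, 487, 445 and 379.6 scaled tags in old libraries, against 481, 458, 383, 293 and 231 in young libraries, and the groups overlapped. A second cluster lay near the middle of the gap, where chr12:25825566-25828403 had 71.8, 58.9, 75.5, 93.8 and 34.1 in old libraries, against 15.9, 58.2, 21.1, 44.0 and 27 in young libraries. Its groups overlapped in scaled tags and separated after centring (log2 difference 1.36 ± 0.32, limma adjusted p = 0.0648).

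The gap between Adgrl2 and Adgrl4, genes of adhesion receptors, held 17 desert regions over 2449 kb, of which 3 were called in all 10 libraries. That between Fn1, the gene of the plasma protein fibronectin made by hepatocytes, and Mreg held 16 over 506 kb, of which 5 were called in all 10. The strongest there, chr1:71885467-71890222, held 321 ± 91.7 scaled tags over the 10 libraries. limma called 0 of these 3 and 0 of these 5, as did edgeR and DESeq2, and an unadjusted p under 0.05 in limma was found in 1 and 2 of them. Over all regions tested, 17.2% had such a p and DESeq2 called 4.93%.

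Desert regions were grouped by the nearest protein-coding gene with the use of 5 gene lists chosen with earlier results known. Of 53 developmental transcription factor genes, 14 were the nearest gene of 39 desert regions (3.08%), against 0.491% of the near intergenic regions. Among them were Maf with 7, Sox5 and Sall1 with 5 each and Sall3 with 4 regions, genes of factors that direct the formation of organs. Of 40 hepatocyte transcription factor genes, 8 were nearest to 27 desert regions (2.13%), against 1.41% of near intergenic regions. Onecut1, Bcl6 and Gata6 had 5 each and Foxa2, a pioneer factor of liver, had 4. Of 38 genes of hormone and growth factor signalling, 11 were nearest to 35 (2.77%), against 1.47%, with Id2 at 12 and Inhba, an activin subunit gene, at 4, as was Rnd3.

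Genes of hepatocyte function were nearly absent from this group. Of 57 genes of hepatocyte metabolism and secreted proteins in the gene table, only Apob was nearest to a desert region, which was 1 region (0.0791%), against 1.32% of near intergenic regions. Of 35 interferon signalling genes in the table, none was nearest to a desert region, against 0.387% of near intergenic regions. No test was made of these shares.

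The strongest region beside a listed gene, chr2:167803108-167812491, lay 113 kb from Cebpb, the gene of a transcription factor that acts in the hepatic acute phase response. It held 645, 526, 697, 617 and 480.5 scaled tags in old libraries, against 369, 854, 576, 506 and 418 in young libraries. The young values enclosed the old ones. Beside Irs2, which transmits the insulin signal in hepatocytes, a region at 126 kb held 264 ± 76.4 in old and 321 ± 63.4 in young libraries, and another at 103 kb held 241 ± 21.97 in old and 286 ± 83.7 in young libraries. The region 191 kb from Dusp6, whose product switches off ERK, held 196 ± 55.5 in old and 179 ± 74.97 in young libraries. All of these overlapped between ages.

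Near the developmental factors, the region 279 kb from Tshz2 held 167 ± 49.1 scaled tags in old and 160 ± 63.5 in young libraries. That 253 kb from Sall3 held 153 ± 33.7 in old and 130 ± 44.6 in young libraries, that 296 kb from Sox5 120.4 ± 27.97 in old and 124 ± 33.9 in young libraries, and that 276 kb from Maf 113 ± 32.1 in old and 119 ± 16.9 in young libraries. In these 4 the groups overlapped. Of the 13 regions of this list called in all 10 libraries, all 13 had log2 differences above 0 with a median of 0.42, against 7 of 13 with a median of 0.12 without centring and 11 of 13 on tags per kb. Of all 322 desert regions tested, 76.1% were above 0. limma and edgeR called 0 of the 13 and DESeq2 1, and 3 had an unadjusted p under 0.05 in limma. Over all regions tested, DESeq2 called 4.93% and 17.2% had an unadjusted p under 0.05. Of the 13 regions of the hormone and growth factor list, 11 were above 0 with a median of 0.47 (8 of 13 without centring), and limma called the Id2 region described above. Of the 5 hepatocyte factor regions tested, 4 were above 0 with a median of 0.20 (2 of 5 without centring). limma, edgeR and DESeq2 called 0 of these 5, and 1 had an unadjusted p under 0.05.

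Few desert regions had a high background. The median over desert regions was 3.24 input tags per kb, and the ratio of scaled tags to input tags had a median of 11.5. Scaled tags are at a common depth and input tags at each library's own depth. The ratio is therefore not the authors' fold over input. Only 3 of the 1265 had more than 30 input tags per kb, in gaps between LOC108168698 and Samd9l, between Cntn3 and Chl1 and between 9530057J20Rik and Gm15319. The last was called in all 10 libraries with 415 scaled tags on average at 37.5 input tags per kb.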

How the data were processed

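The members, gene lists, named-region rule and alternatives were chosen with earlier results of these data known. Of the 20 samples listed, the 10 H3K27ac libraries each have a region list, and these lists were used. Input libraries contributed only their tags per region. Per the file headers, HOMER's histone mode was run on every library with a matching input, and peaks of 500 bp were stitched into regions. Coordinates are on mm10 (submitters' processing notes). No aligner or HOMER version is given in the sources used here.

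The main signal is the tag number that the authors scaled to 10000000 tags per library. The deposited unscaled tags, in steps of 0.5, are estimated counts, and they were rounded for edgeR and DESeq2, which used nothing else. The authors' input signal is scaled to each library's depth, and their fold over input, a ratio, starts at 4. The authors' HOMER score served only for ranking within a list. The region length in bp was deposited beside them.

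Library values were sums over each merged region, so they rise with called length. They were taken only where a region was called. Human spike-in values were not used here, so total acetylation could not be compared. Distances used the RefSeq table of GRCm38.p6, to which mm10 corresponds. A protein-coding gene missing from that table would make some of the distances given here too long. No strand was in that table. Named regions were the 6 strongest, 4 longest and 4 farthest among those called in all 10 libraries, all past the limma threshold with up to 6 per direction of the greatest non-overlapping ones, those called in all 5 libraries of 1 age alone, those next to the limit, the 4 fullest gaps, up to 8 noncoding genes and up to 10 listed flanking genes. MicroRNA regions were added after the data were seen. Motifs were to be searched at region centres. With no genome in use they were searched in RefSeq promoter windows instead, a choice made after the data were seen. Software comprised matplotlib 3.10.9, pandas 2.3.3, scipy 1.17.1, limma 3.58.1, numpy 2.4.6, DESeq2 1.42.0, Python 3.11.15, edgeR 4.0.16 and R 4.3.3. The limma step was tested on simulated data before use.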

Additional observations from a re-analysis of the deposited data

Results flagged for a closer look

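Values of 94 groups of 5 libraries were searched for a single library far from the other 4, and chance flags about 1 in 20 such groups. There were 9 cases, and no explanation of them was tested. Old replicate 5, the library with the fewest tags and the lowest IP efficiency, called the fewest desert regions of the old libraries, 563. It also had the lowest share of called regions in deserts, 3.18%, the smallest desert length, 0.834 Mb, and the lowest signal, 65.2 scaled tags, in the region 123 kb from Id2. Young replicate 1 had the highest share of scaled tags in desert regions of the young libraries, 1.93%. Young replicate 5, which had the longest estimated fragments, had the lowest median density, 22.4 scaled tags per kb. Old replicate 1 was highest of the old libraries at the region 1438 kb from Grik2, with 126 scaled tags, and at the region 116 kb from Gm11677 beyond Kcnj2, with 43.9. Old replicate 3 was highest at the region 145 kb from Srek1, with 109 scaled tags.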

How the results depend on the processing

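No called difference changed sign under the alternatives run. The old minus young difference in the share of scaled tags, 0.224 points, was 0.405 at a limit of 50 kb and 0.00964 with distances from all genes including noncoding ones, and 0.180 to 0.316 with 1 library left out. The difference in members called, −33.6, ran from −58.1 to 17.3 with 1 library left out, and that in the share of called regions, 0.0360, from −0.0457 to 0.132. Against near intergenic regions, the difference in length, −0.14, was −0.032 for regions called in all 10 libraries (exact permutation, adjusted p = 0.0820) and −0.14 to −0.12 with 1 library left out. The leave-one-out ranges were −0.35 to −0.32 for tags, −0.18 to −0.17 for tags per kb and −4.73 to −3.91 points for the share called. The 5 regions called at 1 age alone became 2 with a stricter score threshold, 2 with lists of equal length, 10 at 50 kb and 1 at 200 kb, and 5 to 8 with 1 library left out. The 7 regions past the limma threshold became 11 without centring, 39 in DESeq2, 11 with regions called in at least 3 libraries of each age and 2 at 200 kb, and 2 to 16 with 1 library left out. Over all 12550 regions tested, the 67 higher and 67 lower became 28 and 697 without centring and 328 and 291 in DESeq2. With 1 library left out they were 18 to 160 and 12 to 95. With regions called in at least 3 libraries of each age, 57 of 19847 were higher and 129 lower. The causes were not tested. Old and young libraries of equal replicate number did not deviate together (correlations from −0.05 to 0.18), so the numbers were not taken to pair them, and 2 of 5 old libraries correlated best with their own number. With the number as a replicate block, limma called 2 desert regions, the Sp3 region higher and the Diras2 region lower in old hepatocytes, and the other 6 had adjusted p from 0.0566 (Id2) to 0.0829 (Plxna2). Of all 12550 regions tested, that fit called 33 higher and 41 lower. The number of libraries limits the precision. Calls, tags and lengths of a region share 1 threshold per library. The search for motifs at region centres was not run.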
